A study of Mus musculus with 8 samples.

Results

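The 47 genes described here act in the G2 phase and in mitosis, from the cyclins that start division to the proteins that cut the daughter cells apart. They were taken by name from a list of mitosis genes, which was chosen with earlier results of these data known. Of 23358 genes in the count table, 14086 passed the filter on low counts and were tested, among them all 47. Shares of the 47 set beside shares of all tested genes are therefore descriptive. They were measured by RNA-seq in hematopoietic stem cells of the mouse, which were sorted from bone marrow by the gate Lin-Sca+Kit+CD48-CD150+ without any culture. There were 3 libraries labelled Huwe1 knockout with Mx1-Cre, a Cre recombinase that is switched on by interferon signalling and so deletes upon induction. A further 2 libraries carried the same label with Vav-Cre, a recombinase of the blood system that works constitutively. The remaining 3 libraries were wild type. The product of Huwe1 is a HECT-domain ubiquitin ligase of great size. The labels give no age, no inducing agent and no statement on whether the wild type mice carried a Cre or a floxed allele. Whether each library of a group had its own mouse is not stated either, and the p-values therefore cover the spread between libraries, which may be technical.

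Transcripts of mitosis genes build up as a cell passes through S phase and G2, and most of them are destroyed or shut off again after division. In resting cells the DREAM complex holds these genes silent through short promoter elements, and in dividing cells B-MYB and FOXM1 take its place and switch them on. Hematopoietic stem cells in adult bone marrow are mostly at rest, so the level of such transcripts in a sorted population is commonly read as a measure of how many cells are cycling. In these bulk libraries more cells in division and more mitotic RNA per dividing cell cannot be told apart.

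Total counts ran from 28689765 to 33202926 per library, and the members held from 434 to 35902 counts each per library. Levels below are counts per 1000000 reads counted (CPM), scaled with TMM factors, and fold changes are log2 values from a single edgeR fit over all 8 libraries with their standard error (SE). A gene was called at a Benjamini-Hochberg adjusted p below 0.05 over all tested genes. Huwe1 itself did not pass against wild type (log2 fold change -0.01 ± 0.11 SE for Mx1-Cre, with an edgeR adjusted p of 0.979, and 0.15 ± 0.13 for Vav-Cre, with 0.682). Counts are given per gene and not per exon, which leaves a partial deletion unseen, and the groups are called by their labels. Of the stem cell markers, Kit, Slamf1, Ly6a and the rest of a list of 10 were all detected. The erythroid genes Hba-a1 and Hbb-b1 had no counts in any library.

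The members were jointly high in the Mx1-Cre libraries and split in opposite directions between the 2 Vav-Cre libraries. Their summed level was 8167, 7234 and 8466 CPM in the Mx1-Cre libraries, against 5388, 5338 and 5426 CPM in the wild type libraries. The Vav-Cre libraries had 6980 and 3472 CPM. As a share of the wild type mean, the sums came to 152%, 134% and 157% in Mx1-Cre, to 130% and 64.5% in Vav-Cre, and to between 99.1% and 101% in wild type libraries. Vav-Cre 1 thus lay between the Mx1-Cre and the wild type libraries, and Vav-Cre 2 lay below every other library. Gene by gene, all 47 members were lower in Vav-Cre 2 than in Vav-Cre 1 (49.4% of all tested genes were), with ratios from 0.359 for Kif20a to 0.908 for Espl1 and a median of 0.483. In all, 45 members had their lowest level of the 8 libraries in Vav-Cre 2, against 18.5% of all tested genes, the exceptions being Incenp and Cdc20.

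**Figure D1:**
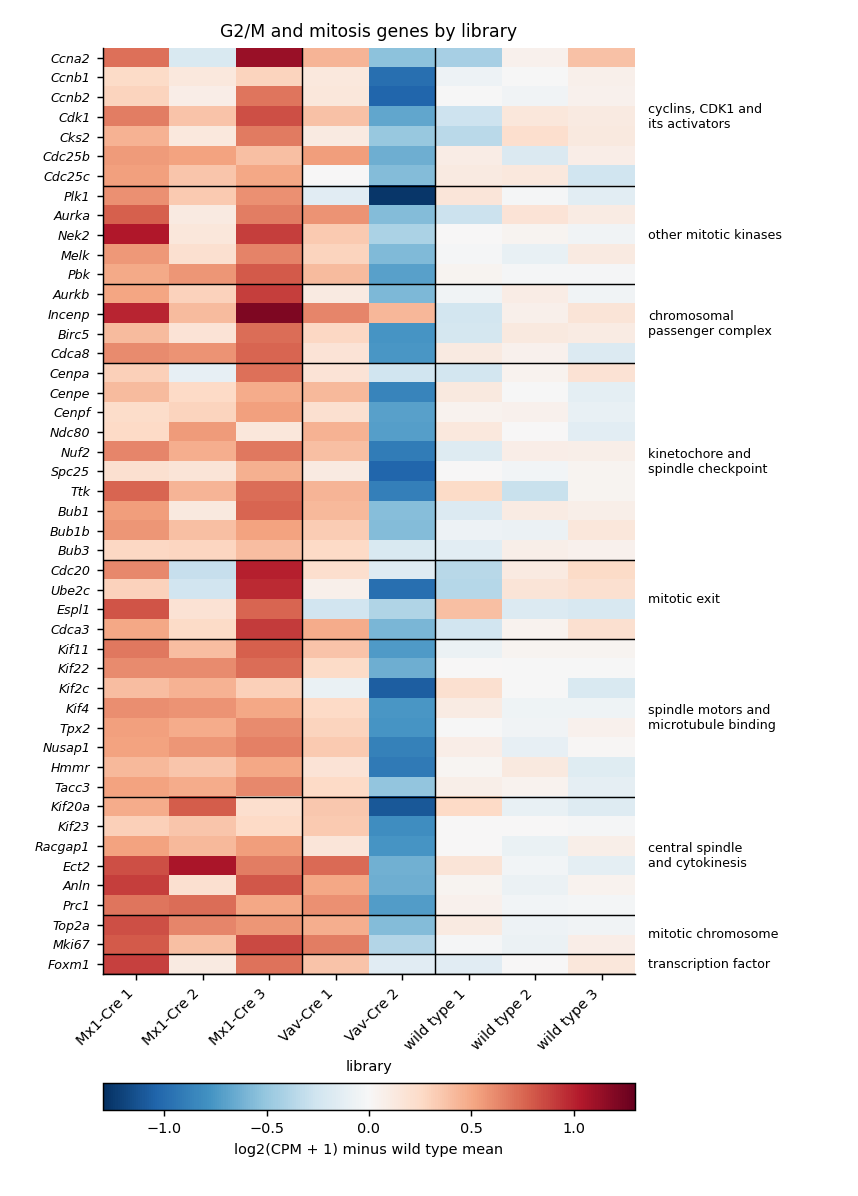
Each row is 1 of the 47 members, grouped by role, and each column 1 library. The colour is log2(CPM + 1) minus the mean of the 3 wild type libraries, red where higher and blue where lower. Mx1-Cre 1 and 3 and most of Mx1-Cre 2 and Vav-Cre 1 are red, and the Vav-Cre 2 column is blue for every member except Incenp.

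The spread of the members within a group followed this split. The coefficient of variation had a median over the members of 11.8% over the Mx1-Cre libraries and 49.3% over the Vav-Cre libraries, against 9.60% over the wild type libraries. Over the 9318 tested genes with a mean of at least 10 CPM, the medians were 14.8% in Mx1-Cre, 12.6% in Vav-Cre and 10.9% in wild type libraries. In the Vav-Cre group the median over the members was thus above that over these genes, and a Vav-Cre mean describes neither library. Within the wild type group the members agreed closely, down to 0.198% for Kif22, and up to 27.7% for Ccna2.

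The members also share promoter sequence. Mouse promoters from RefSeq (build GRCm38.p6, 250 bases before to 50 after each start) were available for 39 of the 47 members and not used for Ccna2, Cdc25c, Pbk, Aurkb, Incenp, Tpx2, Kif20a and Foxm1. Searched on both strands were the cell cycle genes homology region (CHR, TTTGAA or TTCGAA), through which DREAM and B-MYB complexes are known to bind, and CCAAT, the box bound by NF-Y. A CHR was present in 30 of 39 members and 21.7% of the 27025 genes with a promoter, and a CCAAT box in 31 of 39 members and 41.1% of all genes. Both stood in the same promoter in 27 of 39 members, against 8.61% of all genes. Within the last 100 bases before the start to 50 after it, both were present in 25 of 39 members and 2.4% of all genes. The E2F motif (TTTCCCGC or TTTGGCGC) was in 0 of 39 members and 1.8% of all genes, and this says only that these exact letters are not in the windows. A match is a string of letters and not a measured binding site.

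The 130 bases before the start are shown for Cdk1, Cdc20, Espl1, Kif11 and Top2a, in which a CHR lies close to the start with CCAAT boxes beside it, and for Cks2, in which these letters hold CCAAT boxes but no CHR. CHR and CCAAT matches are in capitals (TTCAAA and ATTGG are their reverse strands), and each sequence reads 5′ to 3′ on the gene's own strand.
Cdk1 (chr10:69352913-69353042, minus strand): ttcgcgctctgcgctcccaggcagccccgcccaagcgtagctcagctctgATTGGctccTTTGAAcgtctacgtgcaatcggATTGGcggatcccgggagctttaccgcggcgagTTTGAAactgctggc
Cdc20 (chr4:118437344-118437473, minus strand): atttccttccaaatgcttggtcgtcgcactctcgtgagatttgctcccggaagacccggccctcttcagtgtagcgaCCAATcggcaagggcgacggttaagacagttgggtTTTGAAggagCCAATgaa
Espl1 (chr15:102296163-102296292, plus strand): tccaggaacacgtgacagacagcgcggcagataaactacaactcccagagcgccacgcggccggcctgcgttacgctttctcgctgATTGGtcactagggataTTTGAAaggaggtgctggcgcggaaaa
Kif11 (chr19:37376252-37376381, plus strand): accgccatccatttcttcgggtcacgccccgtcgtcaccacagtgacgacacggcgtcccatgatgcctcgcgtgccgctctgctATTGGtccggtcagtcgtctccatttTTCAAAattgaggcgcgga
Top2a (chr11:99024190-99024319, minus strand): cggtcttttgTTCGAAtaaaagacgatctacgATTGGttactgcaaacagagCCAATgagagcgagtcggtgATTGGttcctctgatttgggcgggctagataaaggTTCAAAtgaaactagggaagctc
Cks2 (chr13:51645102-51645231, plus strand): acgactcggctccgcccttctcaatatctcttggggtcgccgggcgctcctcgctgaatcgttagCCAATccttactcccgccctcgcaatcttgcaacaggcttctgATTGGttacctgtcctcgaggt
Counted back from the start, the nearest CHR began at position -15 in Cdk1, -18 in Cdc20 and -27 in Espl1. It began at -19 in Kif11 and -23 in Top2a. These genes were picked for a CHR just before the start. In many other members the only CHR lay after the start and is not shown, as at 30 in Plk1, 13 in Cdca8 and 19 in Kif4. In the Mx1-Cre comparison described below, the median log2 fold change was 0.53 over the 27 members with both elements and 0.47 over the 12 without both, and in the Vav-Cre comparison it was -0.08 and -0.11.

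Cyclins and the kinase they activate come first in mitosis. Ccnb1 encodes cyclin B1, the partner of CDK1, and had 121, 112 and 125 CPM in Mx1-Cre libraries and 112 and 50.98 CPM in Vav-Cre 1 and 2, against 97.4, 101 and 107 CPM in wild type libraries. The Mx1-Cre and wild type libraries did not overlap, but the gap was the smallest fitted fold of the 47 members (log2 fold change 0.23 ± 0.23 SE, edgeR adjusted p = 0.687). Cdk1, which encodes the kinase itself, had 229, 186 and 257 CPM in Mx1-Cre and 187 and 89.4 CPM in the 2 Vav-Cre libraries, against 119, 159 and 156 CPM in wild type (0.63 ± 0.25 for Mx1-Cre, adjusted p = 0.231). All 3 Mx1-Cre libraries and Vav-Cre 1 were above the highest wild type library, and Vav-Cre 2 was below the lowest. Cdc25c encodes a phosphatase that removes the inhibitory phosphates from CDK1. Its level was 42.3, 37.5 and 41.5 CPM in Mx1-Cre and 29.01 and 19.2 CPM in Vav-Cre libraries, against 31.6, 32.0 and 23.96 CPM in wild type, with Vav-Cre 1 inside the wild type range. The remaining genes of this role, Ccna2 (cyclin A2), Ccnb2 (cyclin B2), Cks2 (a small CDK-binding subunit) and Cdc25b (a further CDK phosphatase), had log2 fold changes of 0.62, 0.38, 0.43 and 0.49 in Mx1-Cre libraries. Ccna2 was the least even member in wild type, at 44.1, 62.7 and 78.2 CPM, and its level in Mx1-Cre 2 of 52.2 CPM lay inside that range while Mx1-Cre 1 and 3 had 99.3 and 132 CPM.

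Among the other mitotic kinases, Plk1 differed most between the knockout lines. Plk1 encodes polo-like kinase 1, which drives entry into mitosis, spindle assembly and cytokinesis. It had 38.01 and 16.98 CPM in the Vav-Cre libraries and 64.1, 53.5 and 64.03 CPM in the Mx1-Cre libraries, with 46.9, 41.5 and 38.3 CPM in wild type. All 3 Mx1-Cre libraries were above and both Vav-Cre libraries below every wild type library, Vav-Cre 1 by under 1 CPM. Pbk encodes a mitotic kinase known for activity in proliferating cells. It stood at 223, 235 and 275 CPM in Mx1-Cre and 209.7 and 96.2 CPM in Vav-Cre libraries, against 161, 156 and 156 CPM in wild type (0.63 ± 0.23 for Mx1-Cre, adjusted p = 0.2). Nek2, whose product splits the centrosomes, Aurka (Aurora A, centrosome and spindle) and Melk had log2 fold changes of 0.78, 0.54 and 0.49 in Mx1-Cre libraries, and each was closer to wild type in Mx1-Cre 2 than in Mx1-Cre 1 and 3.

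The chromosomal passenger complex, the Aurora B kinase with its subunits, corrects wrong attachments of chromosomes to the spindle. Incenp, its scaffold, had 77.04, 51.2 and 90.1 CPM in Mx1-Cre libraries and 59.97 and 52.0 CPM in Vav-Cre libraries, against 32.3, 40.2 and 43.2 CPM in wild type. It was the only member above all wild type libraries in both Vav-Cre libraries, as 15.6% of all tested genes were, and it was above them in all 3 Mx1-Cre libraries too. Its fold was the largest of the members in each comparison with wild type, at 0.92 ± 0.21 for Mx1-Cre (edgeR adjusted p = 0.0522, DESeq2 adjusted p = 0.00116) and 0.54 ± 0.23 for Vav-Cre (edgeR adjusted p = 0.35). Aurkb, the kinase, had 143, 123 and 186 CPM in Mx1-Cre and 108 and 66.2 CPM in Vav-Cre libraries, against 96.1, 106 and 96.4 CPM in wild type. Cdca8 encodes borealin, a targeting subunit. It had 253, 248 and 279 CPM in Mx1-Cre and 186 and 96.9 CPM in Vav-Cre libraries, against 179, 172 and 145 CPM in wild type (0.65 ± 0.21 for Mx1-Cre, edgeR adjusted p = 0.142, DESeq2 adjusted p = 0.0383). Both Aurkb and Cdca8 were above all wild type libraries in all 3 Mx1-Cre libraries and in Vav-Cre 1, and below them in Vav-Cre 2, so the scaffold Incenp stood apart from its partners in Vav-Cre 2. Birc5 (survivin) had 0.45 ± 0.25 in Mx1-Cre libraries.

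Kinetochore and spindle checkpoint genes gave the smallest median fold of any role in Mx1-Cre libraries, 0.37 over 10 genes. They ranged from 0.29 for Spc25, a subunit of the NDC80 complex that binds microtubules, to 0.64 for Ttk, the checkpoint kinase MPS1. Bub3, whose product carries checkpoint proteins to the kinetochore, had 308, 311 and 339 CPM in Mx1-Cre and 305 and 222 CPM in Vav-Cre libraries, against 233, 269 and 266 CPM in wild type. Its fold between the knockout lines was the smallest of the 47 (log2 -0.28 ± 0.16 for Vav-Cre minus Mx1-Cre). In this role 3 of 10 genes reached an unadjusted p below 0.05 with a positive fold in Mx1-Cre libraries, namely Bub1b, Nuf2 and Bub3, where 6.17% of all tested genes did.

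The genes of mitotic exit separated Mx1-Cre 2 from its replicates. Their summed level was 101% of the wild type mean in Mx1-Cre 2, against 146% in Mx1-Cre 1 and 187% in Mx1-Cre 3. Cdc20, an activator of the anaphase-promoting complex, had 42.9, 22.1 and 56.5 CPM in Mx1-Cre and 32.2 and 24.4 CPM in Vav-Cre libraries, against 21.2, 29.9 and 32.9 CPM in wild type. Ube2c, an E2 enzyme that works with that complex, had 54.4, 37.0 and 87.2 CPM in Mx1-Cre and 46.3 and 21.9 CPM in Vav-Cre libraries, against 33.7, 49.4 and 51.1 CPM in wild type. Both were within the wild type range in Mx1-Cre 2 and above it in Mx1-Cre 1 and 3, and Cdc20 was within it in both Vav-Cre libraries. Cdca3, whose frog counterpart helps degrade the mitosis inhibitor WEE1, had 82.3, 68.5 and 109 CPM in Mx1-Cre and 80.7 and 37.9 CPM in Vav-Cre libraries, against 48.3, 59.3 and 66.8 CPM in wild type. Espl1 encodes separase, the protease that releases sister chromatids. Its level was 72.6, 46.5 and 69.5 CPM in Mx1-Cre and 33.98 and 30.9 CPM in Vav-Cre libraries, against 53.7, 35.8 and 35.03 CPM in wild type. Both Vav-Cre libraries were below all wild type libraries, as in Plk1 and in 17.1% of all tested genes, and Mx1-Cre 2 was below wild type 1, which stood apart from wild type 2 and 3.

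Spindle motors and microtubule-binding proteins were the most even role in the Mx1-Cre group, at 147%, 142% and 155% of the wild type mean. Kif22, a chromosome-arm kinesin, had 198, 198 and 213 CPM in Mx1-Cre and 153 and 82.6 CPM in Vav-Cre libraries, against 129, 129 and 128 CPM in wild type (0.66 ± 0.19 for Mx1-Cre, edgeR adjusted p = 0.108, DESeq2 adjusted p = 0.021). Nusap1, which bundles spindle microtubules, had 283, 294 and 311 CPM in Mx1-Cre and 249 and 106 CPM in Vav-Cre libraries, against 209, 183 and 198 CPM in wild type. Neither gene overlapped between the Mx1-Cre and the wild type libraries. Kif2c, a kinesin that takes microtubules apart, had 80.5, 83.4 and 75.5 CPM in Mx1-Cre and 57.1 and 28.4 CPM in Vav-Cre libraries, against 70.1, 60.6 and 52.6 CPM in wild type, with Vav-Cre 1 inside the wild type range. In this role 6 of 8 genes had an unadjusted p below 0.05 with a positive fold in Mx1-Cre libraries, where 6.17% of all tested genes did. The log2 fold changes of Kif11 (the bipolar spindle motor Eg5), Tpx2 (a spindle assembly factor that activates Aurora A) and Tacc3 were 0.63, 0.55 and 0.55.

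The central spindle and cytokinesis genes were as high in Mx1-Cre 2 as in the other Mx1-Cre libraries, with sums of 154%, 155% and 140% of the wild type mean in Mx1-Cre 1, 2 and 3. Ect2 encodes the exchange factor that activates RhoA at the division furrow. It had 114, 133 and 101 CPM in Mx1-Cre and 106 and 40.8 CPM in Vav-Cre libraries, against 71.1, 61.8 and 57.7 CPM in wild type (0.87 ± 0.28 for Mx1-Cre, edgeR adjusted p = 0.149, DESeq2 adjusted p = 0.0327). Prc1, which cross-links the microtubules of the central spindle, had 312, 319 and 274 CPM in Mx1-Cre and 291 and 116 CPM in Vav-Cre libraries, against 199.7, 188 and 189 CPM in wild type. For both genes Vav-Cre 1 lay above the wild type libraries, within the Mx1-Cre range, and Vav-Cre 2 below them. Kif20a, a kinesin of the central spindle, was the 1 member whose Mx1-Cre 3 level was inside the wild type range, at 105 CPM against 109 CPM in wild type 1.

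Top2a, Mki67 and Foxm1 are used widely as marks of dividing cells. Top2a encodes topoisomerase II alpha, which untangles sister chromatids, and had 1109, 962 and 924 CPM in Mx1-Cre and 861 and 421 CPM in Vav-Cre libraries, against 674, 592 and 602 CPM in wild type (0.68 ± 0.22 for Mx1-Cre, edgeR adjusted p = 0.145, DESeq2 adjusted p = 0.0351). Mki67 encodes Ki-67, the coat of mitotic chromosomes, and had 1058, 796 and 1099.9 CPM in Mx1-Cre and 962 and 465 CPM in Vav-Cre libraries, against 599, 576 and 646 CPM in wild type (0.70 ± 0.23, edgeR adjusted p = 0.158, DESeq2 adjusted p = 0.0403). In both genes the Mx1-Cre libraries and Vav-Cre 1 lay above the wild type range and Vav-Cre 2 below it. Foxm1 encodes the transcription factor that acts on many of the other members. It had 97.1, 56.1 and 85.1 CPM in Mx1-Cre and 67.3 and 46.6 CPM in Vav-Cre libraries, against 46.7, 51.9 and 57.5 CPM in wild type, with Mx1-Cre 2 just inside the wild type range (0.61 ± 0.22, edgeR adjusted p = 0.183).

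**Figure D2:**
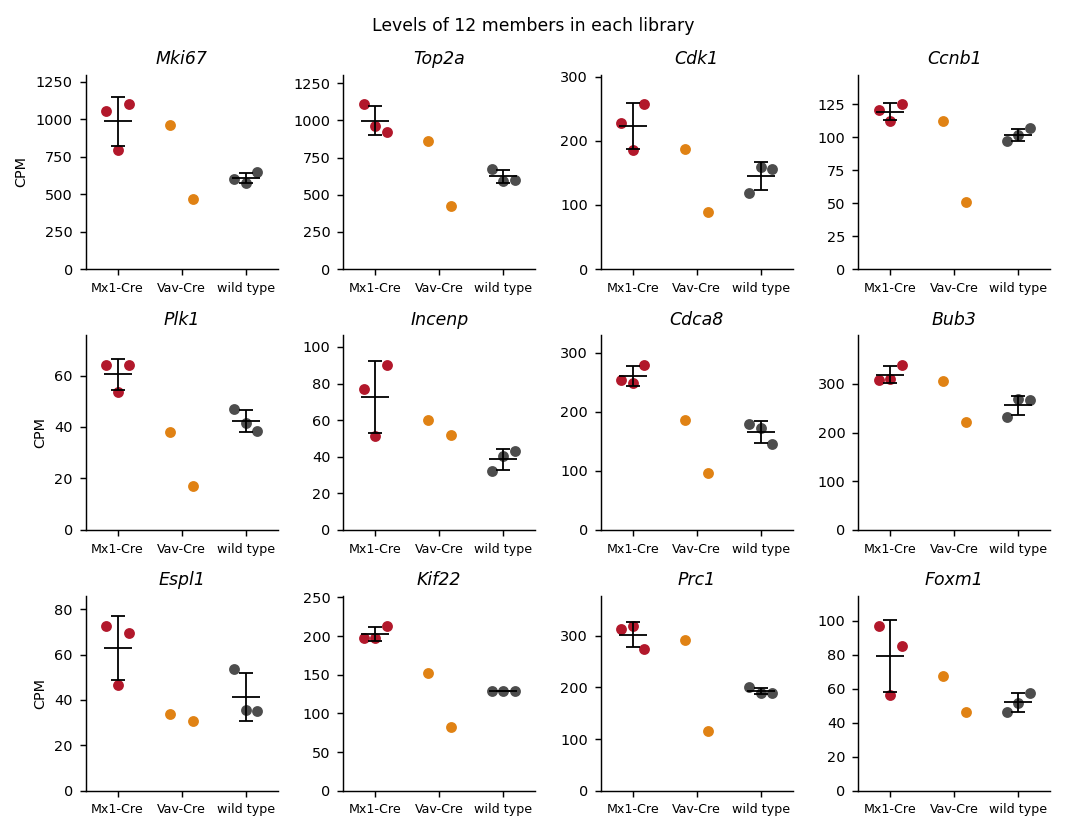
Points are single libraries and the vertical axes, which start at 0, give CPM. Bars are the mean ± SD of the 3 Mx1-Cre or the 3 wild type libraries, and the 2 Vav-Cre libraries are shown without a mean. In Top2a the Mx1-Cre libraries lie between 924 and 1109 CPM, the Vav-Cre libraries at 861 and 421 CPM, and the wild type libraries between 592 and 674 CPM.

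Set against wild type over all libraries, the Mx1-Cre fold was positive for all 47 members, with a median log2 fold change of 0.54, where the median of all tested genes was 0.01 and 51.3% of them were positive. The ratio of means ran from 1.17 for Ccnb1 to 1.89 for Incenp. All 3 Mx1-Cre libraries were above all 3 wild type libraries in 38 of 47 members, against 10.9% of all tested genes. The 9 others were Ccna2, Cks2, Aurka, Cenpa, Cdc20, Ube2c, Espl1 and Foxm1, where Mx1-Cre 2 overlapped wild type, and Kif20a, where Mx1-Cre 3 did. In edgeR 0 of 47 members were called, where 0.39% of all tested genes were called higher and 2.1% lower, and 25 members had an unadjusted p below 0.05 with a positive fold, where 6.17% of all tested genes did. DESeq2 called 6 members higher (2.16% of all genes): Incenp, Kif22, Cdca8, Top2a, Ect2 and Mki67.

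The count of members called in Mx1-Cre libraries moved with the test used and with which libraries shared the estimate of spread. Leaving out Vav-Cre 1 gave 14 calls, all higher (0.889% of all tested genes), and leaving out Vav-Cre 2 gave the same 14 genes (0.921%). A fit of the Mx1-Cre and wild type libraries alone called 15 members (1.03%), and limma-voom with quality weights called 25 (4.88%). The fold changes themselves moved little, as the median over the members ran from 0.48 to 0.62 when each library was left out in turn.

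**Figure D3:**
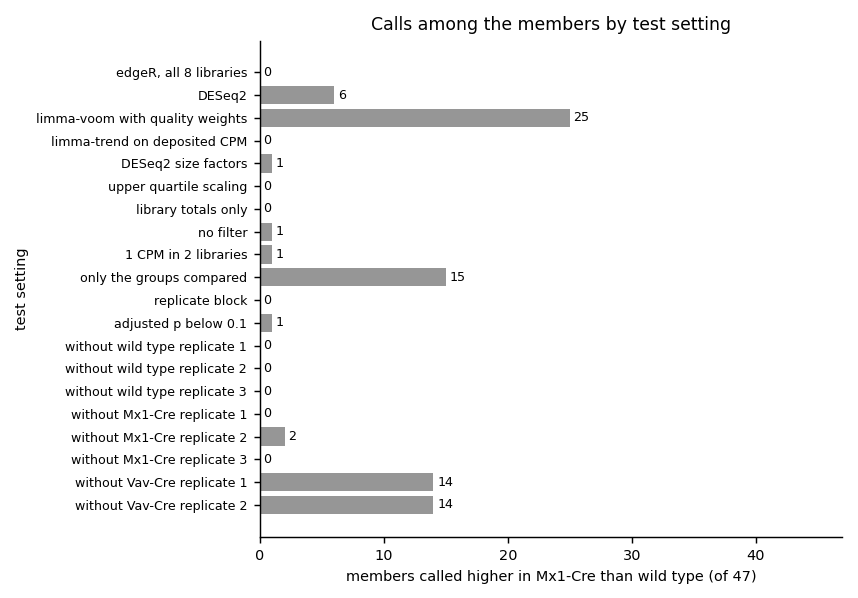
Bars give how many of the 47 members were called higher in Mx1-Cre than in wild type libraries (horizontal axis) under each test or left-out library (vertical axis). The count is 0 in the edgeR fit over all 8 libraries, 14 without either Vav-Cre library and 25 in limma-voom with quality weights.

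Against wild type, the Vav-Cre fold was positive for 14 members and negative for 33 (49% of all tested genes were positive), with a median of -0.09 (-0.01 over all tested genes). It ran from -0.62 ± 0.29 for Plk1 (edgeR adjusted p = 0.385) to 0.54 ± 0.23 for Incenp. In edgeR 0 of 47 members were called in either direction (0.192% of all genes higher and 0.319% lower), Incenp alone had an unadjusted p below 0.05 (5.76% of all genes did with a positive fold), and DESeq2 called 0 members (1.63% of all genes higher and 2.62% lower). These averages join 2 libraries that went opposite ways. Vav-Cre 1 was above all wild type libraries in 39 of 47 members (29.8% of all tested genes) and Vav-Cre 2 below them in 45 (35.3%). Both at once held for 38 members, against 6.7% of all tested genes. Without Vav-Cre 2 the median member fold was 0.33 (-0.01 over all tested genes). Without Vav-Cre 1 it was -0.70 (-0.04 over all tested genes). In these fits the lone Vav-Cre library was assumed to vary like the other groups.

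**Figure D4:**
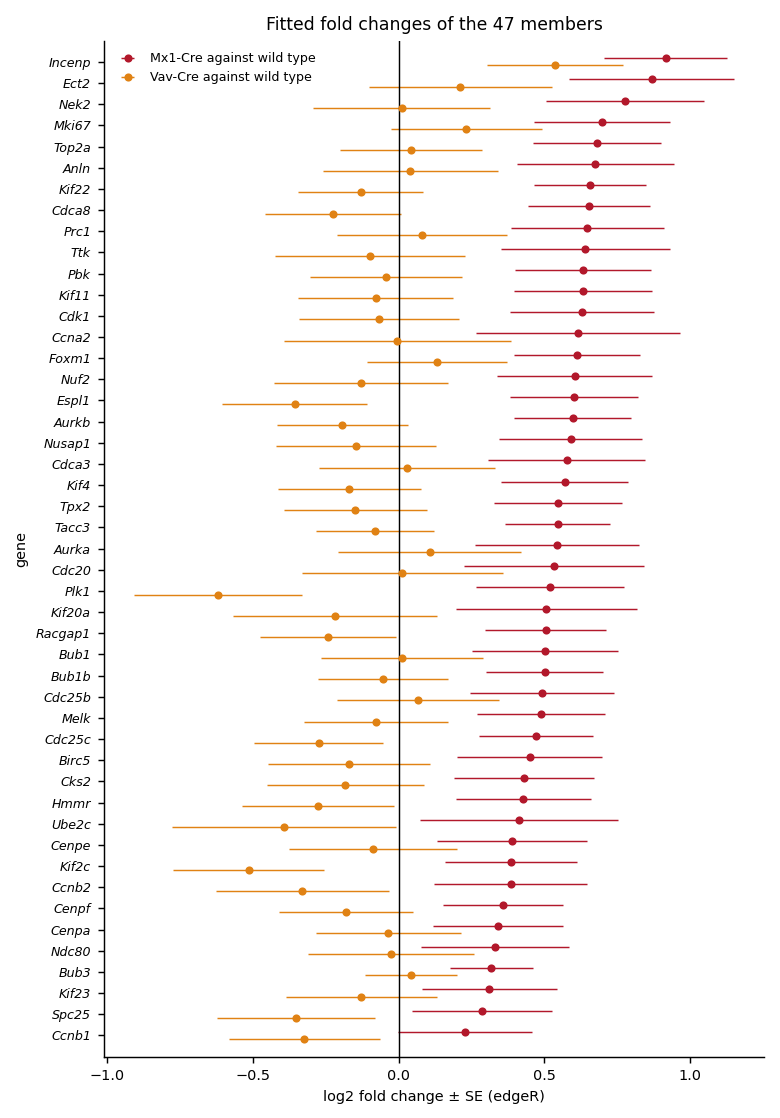
Points are log2 fold changes and lines ± SE from the edgeR fit (horizontal axis) for the 47 members (vertical axis, ordered by the Mx1-Cre fold), for Mx1-Cre and for Vav-Cre against wild type. All Mx1-Cre points lie between 0.23 and 0.92, and the Vav-Cre points lie between -0.62 and 0.54. The comparisons share the wild type libraries.

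With both knockout lines averaged at equal weight, 43 members had a positive fold (50% of all tested genes did), with a median of 0.21 (0.00 over all tested genes), and 0 of 47 were called in edgeR (0.547% of all genes higher and 2.1% lower). Incenp had 0.73 ± 0.19 (edgeR adjusted p = 0.0815) and was the sole member with an unadjusted p below 0.05 (6.11% of all genes with a positive fold). It was also the sole member that DESeq2 called, where 2.07% of all genes were called higher (adjusted p = 0.00695). The 4 members with a negative averaged fold were Ccnb1, Plk1, Spc25 and Kif2c, at -0.05, -0.05, -0.03 and -0.06. The median turned to -0.05 without Vav-Cre 1 and was 0.41 without Vav-Cre 2, when Ect2, Mki67, Prc1 and Top2a were called higher (0.351% of all genes).

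The difference between the lines was tested directly as Vav-Cre minus Mx1-Cre. It was negative for all 47 members (49.3% of all tested genes), with a median of -0.64 (0.01 over all tested genes), from -1.14 ± 0.29 for Plk1 to -0.28 ± 0.16 for Bub3. In edgeR 0 members were called (0.114% of all genes higher and 0.0568% lower), the smallest adjusted p being 0.169 for Plk1, and 26 had an unadjusted p below 0.05 with a negative difference (5.96% of all genes). DESeq2 called 7 lower (1.55% of all genes), namely Plk1 (adjusted p = 0.00776), Espl1 (0.014), Cdca8 (0.0162), Kif22 (0.0226), Kif2c (0.0295), Aurkb (0.0306) and Cdc25c (0.0427). Both Vav-Cre libraries were below all 3 Mx1-Cre libraries in 24 of 47 members (12% of all tested genes). The size of the difference depended on Vav-Cre 2. Without it the median was -0.22, with 5 members positive, 0 called and 5 at an unadjusted p below 0.05, and without Vav-Cre 1 it was -1.23 with 33 members called lower (1.43% of all genes). With each library left out in turn, the difference ran from -1.14 to -0.84 for Espl1, from -1.84 to -0.67 for Plk1 and from -1.43 to -0.48 for Cdca8, and the Vav-Cre libraries of Espl1 were both low.

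Other mitosis genes and genes of G1/S followed the same order of groups in their summed levels. Of 68 other mitosis genes (condensins, centromere proteins, further kinesins and others), 65 had a positive Mx1-Cre fold (median 0.47), 0 were called in edgeR (33 higher and 1 lower at an unadjusted p below 0.05, beside 6.17% and 10.5% of all tested genes) and 11 higher in DESeq2 (2.16% of all genes). In Vav-Cre libraries 22 were positive and 46 negative (median -0.09). All 36 genes of G1/S and replication had a positive Mx1-Cre fold (median 0.43, 0 called in edgeR with 20 at an unadjusted p below 0.05, and 7 called in DESeq2), and 10 were positive and 26 negative in Vav-Cre libraries (median -0.12). The summed level in Vav-Cre 2 was 72.4% of the wild type mean for the other mitosis genes and 72.6% for the G1/S genes. The 17 regulators of mitotic transcription, such as the DREAM and MuvB subunits, pocket proteins, NF-Y subunits and Mybl2 (B-MYB), had 13 positive folds in Mx1-Cre libraries (median 0.23, 0 called in edgeR with 3 higher and 2 lower at an unadjusted p below 0.05, and 2 called higher in DESeq2). Their sums were 105% to 125% of the wild type mean in Mx1-Cre libraries and 112% and 93.6% in Vav-Cre libraries. No test compared these lists with one another.

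**Figure D5:**
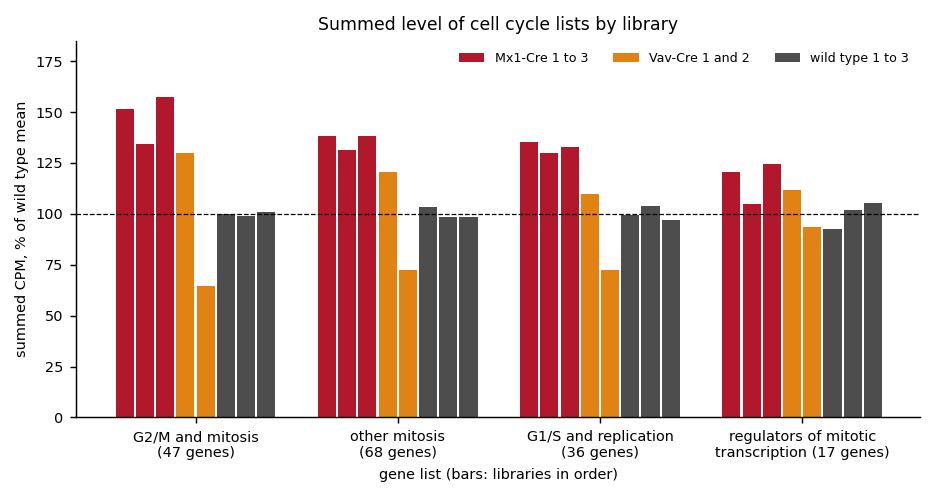
Bars are single libraries in the order Mx1-Cre 1 to 3, Vav-Cre 1 and 2, wild type 1 to 3, and the vertical axis, which starts at 0, is the summed CPM of a list as a percent of the wild type mean (dashed line at 100). The members range from 64.5% in Vav-Cre 2 to 157% in Mx1-Cre 3, a wider range than in the other lists shown.

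Of the CDK inhibitors, which hold cells back from division, 5 of 7 were tested. In Mx1-Cre libraries edgeR called 1 higher (0.39% of all tested genes) and 1 lower (2.1%). Cdkn1a (p21), a target of p53, rose (2.15 ± 0.45, edgeR adjusted p = 0.0352), with 9.57, 6.35 and 21.5 CPM in Mx1-Cre libraries and 6.55 and 7.50 CPM in Vav-Cre libraries, against 3.17, 1.84 and 3.39 CPM in wild type. Cdkn1c (p57), known for keeping hematopoietic stem cells at rest, fell (-1.64 ± 0.27, edgeR adjusted p = 0.0151), with 5.71, 4.57 and 5.11 CPM in Mx1-Cre and 10.3 and 11.5 CPM in Vav-Cre libraries, against 10.4, 17.8 and 19.8 CPM in wild type. Cdkn1c in both Vav-Cre libraries lay above all Mx1-Cre libraries, and the 2 Vav-Cre libraries were close to each other. Cdkn2c (p18), an inhibitor of CDK4 and CDK6, had 11.6, 7.65 and 12.2 CPM in Mx1-Cre and 11.2 and 19.8 CPM in Vav-Cre libraries, against 5.12, 5.38 and 5.51 CPM in wild type. All 5 knockout libraries were above the wild type libraries, and the highest was Vav-Cre 2, where 45 of 47 members had their lowest level. The tested inhibitors did not all go this way. Cdkn1a and Cdkn1c were also higher in Vav-Cre 2 than in Vav-Cre 1. Cdkn2d (18.3 CPM in Vav-Cre 1 and 13.1 CPM in Vav-Cre 2) and Cdkn1b (63.9 and 52.0 CPM) were lower. All 7 inhibitors summed to 110 CPM in Vav-Cre 1 and 104 CPM in Vav-Cre 2. A link between any inhibitor and the members' levels was not tested. With both lines averaged Cdkn2c was called higher (log2 fold change 1.26 ± 0.26, edgeR adjusted p = 0.0347; 0.547% of all tested genes were) and Cdkn1c lower (-1.10 ± 0.24, edgeR adjusted p = 0.0376; 2.1% were). For Vav-Cre alone the Cdkn2c log2 fold change was 1.54 ± 0.31 (edgeR adjusted p = 0.0631, DESeq2 adjusted p = 0.000573), and for Mx1-Cre alone 0.98 ± 0.28 (edgeR adjusted p = 0.106, DESeq2 adjusted p = 0.0217).

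Markers of other cells also differed between these libraries. The 8 mast cell and basophil markers summed to 24.8 to 41.2 CPM in Mx1-Cre libraries, 16.5 CPM in Vav-Cre 1 and 241 CPM in Vav-Cre 2, against 10.4 to 14.9 CPM in wild type, and Fcer1a made up 209 CPM of the sum in Vav-Cre 2. The 6 myeloid progenitor markers summed to 152 to 206 CPM in Mx1-Cre libraries, against 392 to 628 CPM in wild type. Their sums were 144 CPM in Vav-Cre 1 and 351 CPM in Vav-Cre 2. Prtn3 made up 220 CPM of the sum in Vav-Cre 2, above its 68.8 to 89.9 CPM in wild type. Mpo and Elane had 72.0 and 40.3 CPM in Vav-Cre 2. Their wild type levels were 215 to 367 CPM and 87.4 to 148 CPM. The 10 stem cell markers summed to 3068 to 5814 CPM in Mx1-Cre and to 5019 and 4656 CPM in Vav-Cre libraries, against 4666 to 5688 CPM in wild type. The 8 erythroid markers summed to 214 to 348 CPM in Mx1-Cre libraries and 81.6 and 110 CPM in Vav-Cre libraries, against 156 to 231 CPM in wild type. The 4 progenitor markers outside the sort gate (Cd48, Flt3, Cd34 and Il7r) summed to 467 to 823 CPM in Mx1-Cre libraries. The sums were 451 and 600 CPM in Vav-Cre libraries and 469 to 620 CPM in wild type, with Cd34 the largest part of each. Cd48 had 22.5, 19.2 and 22.3 CPM in Mx1-Cre libraries, against 14.8, 16.1 and 14.8 CPM in wild type (edgeR adjusted p = 0.187). Flt3, Cd34 and Il7r overlapped between these 2 groups. Neutrophil and monocyte markers (8 genes) came to 362 to 836 CPM in Mx1-Cre libraries, against 573 to 1435 CPM in wild type. In Vav-Cre 1 and 2 they came to 314 and 509 CPM, of which Lyz2 made up 307 and 252 CPM. Ngp had 2.66 and 128 CPM in Vav-Cre 1 and 2, Ltf 0.210 and 29.6 CPM, and S100a8 1.19 and 34.1 CPM. Camp, S100a9 and Retnlg were also higher in Vav-Cre 2, and Lyz2 and Csf1r were lower. Megakaryocyte markers (6 genes) came to 508 to 752 CPM in Mx1-Cre and to 321 and 596 CPM in Vav-Cre libraries, against 680 to 875 CPM in wild type. Lymphoid markers (8 B, T and NK cell genes) came to 19.9, 23.7 and 5.50 CPM in Mx1-Cre 1, 2 and 3 and to 6.10 and 9.02 CPM in Vav-Cre libraries, against 6.20 to 13.9 CPM in wild type. The part of these cells in the members' levels was not tested.

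The libraries were made without strand information, and 16 members share exon bases with another gene in GENCODE vM21. The largest overlaps were 1271 bases of Kif20a with Cdc23, 911 of Prc1 with Rccd1, 832 of Kif4 with Pdzd11, 623 of Cdc25c with Gm3550, 592 of Ube2c with Tnnc2 and 510 of Ccna2 with Exosc9. Reads from these bases cannot be told apart by strand. A pseudogene named after Kif4, Kif4-ps, is in the count table, so the counts of Kif4 may be split and are uncertain.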

How the data were processed

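RNA-seq of 8 libraries of sorted mouse stem cells was analysed. Raw whole-number counts of reads, 1 row per gene symbol, were deposited by the authors. Build mm9 and the tools TopHat, SAMtools, HTSeq and edgeR are named, per the submitters' processing notes, without a version. A second deposited table gives CPM values, each equal to the count scaled by its library total (relative difference at most 5.1e-15), for 12457 genes, and served only an alternative. Counts were filtered with filterByExpr (minimum count 10, minimum total 15), scaled with TMM (factors 0.961 to 1.03) and fitted in edgeR 4.0.16 (R 4.3.3) by the quasi-likelihood test with group as the only term over 8 libraries. Benjamini-Hochberg adjustment ran over 14086 genes, and each SE was had from the size of the log2 fold change and the square root of its F. Log2 ratios by library used a pseudocount of 1 CPM. Alternatives were DESeq2 1.42.0, limma 3.58.1, other scalings and filters, fewer groups, leaving out each library, a threshold of 0.1 on adjusted p, and a replicate block.

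Groups come from the sample titles. The 47 members, their roles and the other lists were chosen with earlier results of these data known. Values in every library are given for Ccnb1, Cdk1, Mki67, Top2a and Foxm1, for the member with the highest mean CPM of each role, and for members with the 3 smallest p, the highest or the lowest fold, or a call by edgeR or DESeq2 in a comparison. Ccna2, Cdc20, Ube2c, Kif20a and the CDK inhibitors fall outside this rule and were added with their values known. Promoters come from RefSeq on GRCm38.p6, and no coordinate was carried between builds.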

Additional observations from a re-analysis of the deposited data

How the results depend on the processing

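Members called in edgeR over all 8 libraries numbered 0 in each comparison. For Mx1-Cre against wild type the count was 6 in DESeq2, 25 in limma-voom with quality weights, 15 with only the groups compared, and 1 (Incenp) with DESeq2 size factors, without a filter, with a filter of 1 CPM in 2 libraries or at an adjusted p of 0.1. It was 0 to 14 with a library left out, 14 without Vav-Cre 1 or Vav-Cre 2 and 2 (Foxm1 and Incenp) without Mx1-Cre 2. For Vav-Cre against wild type it was 0 to 7 (7 without Vav-Cre 1). For both lines averaged it was 1 in DESeq2, in limma-voom and at an adjusted p of 0.1, and 0 to 4 with a library left out (4 without Vav-Cre 2, 1 without Mx1-Cre 2). For Vav-Cre minus Mx1-Cre it was 7 in DESeq2 and 0 to 33 with a library left out (33 without Vav-Cre 1). With a library left out, the median member log2 fold change was 0.48 to 0.62 for Mx1-Cre, -0.70 to 0.33 for Vav-Cre, -0.05 to 0.41 averaged and -1.23 to -0.22 for Vav-Cre minus Mx1-Cre. Genes called over all tested genes numbered 351 for Mx1-Cre in edgeR (58 to 565 with a library left out, 1815 in limma-voom), 72 for Vav-Cre (5 to 196, 599 in DESeq2), 373 averaged (22 to 502, 992 in limma-voom) and 24 for Vav-Cre minus Mx1-Cre (3 to 412, 468 in DESeq2). The replicate block called 0 members and 235, 20, 218 and 9 genes in all in these 4 comparisons. Same-numbered Mx1-Cre and wild type libraries deviated together at r = -0.002, 0.001 and 0.129. Pairs of these groups with different numbers ran from -0.177 to 0.163. Same-numbered Vav-Cre and wild type libraries had 0.008 and -0.014. The labels state no pairing, and correlations of so few libraries cannot decide whether same-numbered samples were handled together. Every member held at least 434 counts per library. For Mx1-Cre against wild type, no named member's fold changed sign under any alternative. In the other comparisons only the 3 members with the smallest p were followed in this way, and none of their folds changed sign. The remaining members were not followed there, and the median Vav-Cre fold did change sign when a Vav-Cre library was left out.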
